A study of Mus musculus with 12 samples.

Results

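Bgn and Timp1 are genes of the mouse X chromosome that act in the extracellular matrix, and their allele use was followed in fibroblasts and in cells reprogrammed from fibroblasts. They were chosen by name, as the single-base variants covered by at least 20 reads whose gene column names Bgn or Timp1. These are 2 of the 399 genes with such a site in any library, and they hold 33 of 6478 sites, 24 in Bgn and 9 in Timp1. LowK cells were reprogrammed with the Sendai virus vector SeVdp(fKOSMaB) without Shield1 and were taken at days 35, 52 and 56. MidK1 cells received the same vector and 30 nM Shield1, a small molecule that protects proteins carrying a destabilising domain from breakdown, and were taken at the same days. MidK2 is a separate course with the same vector and 30 nM Shield1, taken at days 18, 22, 29 and 36. Mouse embryonic fibroblasts without vector or agent (MEF1 and MEF2, day 0) were the starting cells. The 12 libraries of poly(A) RNA hold 1 library for each course and day, and the sources used here do not state whether MEF1 and MEF2 came from separate cultures.

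Bgn encodes biglycan, a small leucine-rich proteoglycan that is secreted by fibroblasts and other connective tissue cells and binds collagen fibres. Timp1 encodes a secreted inhibitor of matrix metalloproteinases, the enzymes that cut matrix proteins. In female mammals each cell silences one X chromosome, so a gene on the silent copy gives few or no reads until that copy is reactivated, as happens when mouse cells become pluripotent. Where the chromosomes differ in sequence, reads with the reference base and reads with the variant base count the copies separately. Most fibroblast reads of both genes carried the variant base, and the question here is how many reference reads were counted as the total coverage of these fibroblast genes became lower.

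Bgn lies at chrX:73483602-73495933 on the plus strand of GRCm38 (mm10), and 18 of its 24 sites are in the 3' UTR, 3 in coding sequence, 1 in an intron and 2 in exons of other transcripts. Timp1 lies at chrX:20870166-20874735 on the plus strand, with 4 sites in the 5' UTR, 1 in coding sequence, 2 in the 3' UTR and 2 in introns. All Timp1 sites also carry the name Syn1 in the tables, because Timp1 lies inside Syn1 (chrX:20860511-20921004), which is transcribed from the opposite strand. The libraries were made with a directional kit, but whether the variant calling used strand is not given in the sources used here, so Syn1 reads could not be separated from Timp1 reads. Sites named Syn1 alone reached 20 reads in no library but MidK1 at day 56, where there were 2. At any coverage, variants named Syn1 alone were listed in 9 of the 10 reprogrammed libraries, with 5, 0 and 2 in LowK at days 35, 52 and 56, 7, 1 and 4 in MidK1 at those days and 1, 10, 1 and 3 in MidK2 at days 18, 22, 29 and 36, against 0 in both MEF libraries. The part of Syn1 reads in the Timp1 values was not tested. The windows below show the sites that tell the alleles apart, in the reference form and the variant form, with the variable bases in capitals, 5′ to 3′ on the plus strand. Each coding window shows whether the amino acid differs at its own site, and the other coding sites of Bgn are not shown. The 3' UTR windows are shown because they hold sites that could be followed in every library listing the gene.
Bgn coding, chrX:73490991-73491031, reference: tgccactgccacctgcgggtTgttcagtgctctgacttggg
Bgn coding, chrX:73490991-73491031, variant: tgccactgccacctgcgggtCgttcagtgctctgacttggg
Bgn 3' UTR, chrX:73495750-73495774, reference: gcaggccaTcagagCcGccagaacc
Bgn 3' UTR, chrX:73495750-73495774, variant: gcaggccaCcagagTcCccagaacc
Timp1 coding, chrX:20874523-20874563, reference: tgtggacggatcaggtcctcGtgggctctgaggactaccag
Timp1 coding, chrX:20874523-20874563, variant: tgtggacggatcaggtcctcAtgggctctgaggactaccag
Timp1 3' UTR, chrX:20874634-20874662, reference: ctgaagCcttcccccaggaaaaActgaag
Timp1 3' UTR, chrX:20874634-20874662, variant: ctgaagTcttcccccaggaaaaGctgaag

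The first Bgn window holds T73491011C, which leaves the amino acid the same, and it was listed with 20 or more reads in the MEF libraries and in no reprogrammed library. The second holds T73495758C, C73495764T and G73495766C, so close together that single reads can cover all of them. The first Timp1 window holds G20874543A, which changes the amino acid, and the second holds C20874640T and A20874656G. Positions in these changes are counted along the chromosome, and the reference base is named before the variant base. Reference sequence was read from the GENCODE M21 transcripts.

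The reference share is the percentage of reads over a gene's sites that did not carry the variant base. The tables hold positions with variant reads, so a site read wholly from the reference base is missing from them. The tables fall into 2 sets with different limits. The 7 tables of MEF1, LowK and MidK1 list no variant with under 5 reads or under 10% of reads, and the 5 tables of MEF2 and MidK2 none with under 2 reads or under 5%. Both sets start at a coverage of 10. LowK and MidK1 were therefore compared with MEF1, and MidK2 with MEF2. The libraries held 138579 to 279031 reads over all X chromosome sites with 20 or more reads, and shares below carry 95% Wilson intervals. A read can cover several sites and carries no molecular identifier, so intervals and read tests cover counting error only.

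To follow the same positions through a course, the share was taken at the sites listed with 20 or more reads in every library that lists the gene. These are 6 Bgn sites, all in the 3' UTR, in 10 libraries, and 3 Timp1 sites in all 12 libraries. They are called constant sites below. At these sites Bgn was read from the variant base in fibroblasts and mainly from the reference base in every reprogrammed library that listed it. Timp1 stood at lower reference shares than Bgn in each library that listed both, and its days came in another order.

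In the LowK course the Bgn reference share was 3.68% (634 of 17223 reads, 3.41 to 3.97) in MEF1 and 75.2% (164 of 218 reads, 69.1 to 80.5) at day 35. None of the 15 Bgn sites of MEF1 was listed at LowK days 52 and 56, at any coverage. Such a position may have had under 10 reads, too few variant reads or reference reads alone, and the tables do not say which, so no share or level of Bgn can be given there.

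In the MidK1 course the Bgn share after MEF1 was 55.2% (312 of 565 reads, 51.1 to 59.3) at day 35, 67.1% (167 of 249 reads, 61.0 to 72.6) at day 52 and 80.5% (478 of 594 reads, 77.1 to 83.5) at day 56. In the MidK2 course it was 1.26% (266 of 21100 reads, 1.12 to 1.42) in MEF2 and 68.3% (517 of 757 reads, 64.9 to 71.5) at day 18. It was then 89.2% (1592 of 1785 reads, 87.7 to 90.5) at day 22, 90.1% (1051 of 1166 reads, 88.3 to 91.7) at day 29 and 81.7% (165 of 202 reads, 75.8 to 86.4) at day 36. The Bgn intervals of the reprogrammed libraries do not overlap that of the MEF library in any course. The share of all genes for which this holds is not given here, for Bgn or for Timp1 below. The shares at MidK2 days 22 and 29 lie close to 95%, the highest share a listed site can show in that set. Sites with few reads have a lower ceiling, since LowK variants needed 5 reads to be listed. At LowK day 35 the constant Bgn site with 23 reads stood at this ceiling, with 78.3%. Of the 15 Bgn sites of MEF1, 5 were not listed there at any coverage. The Bgn share of LowK day 35 may therefore read too low.

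For Timp1 the LowK course had a reference share of 2.93% (18 of 614 reads, 1.86 to 4.59) in MEF1 and 12.6% (24 of 191 reads, 8.59 to 18.0) at day 35. It was 16.4% (12 of 73 reads, 9.66 to 26.6) at day 52 and 44.1% (49 of 111 reads, 35.3 to 53.4) at day 56. In the MidK1 course it was 35.0% (92 of 263 reads, 29.5 to 40.9) at day 35, 53.1% (170 of 320 reads, 47.7 to 58.5) at day 52 and 47.5% (215 of 453 reads, 42.9 to 52.1) at day 56. These libraries all lie above MEF1, and the intervals of MidK1 days 52 and 56 overlap.

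In the MidK2 course Timp1 had 0.951% (10 of 1052 reads, 0.517 to 1.74) in MEF2, 17.5% (54 of 309 reads, 13.6 to 22.1) at day 18 and 41.8% (173 of 414 reads, 37.1 to 46.6) at day 22. It had 22.3% (100 of 449 reads, 18.7 to 26.3) at day 29 and 23.9% (51 of 213 reads, 18.7 to 30.1) at day 36. Day 22 stood highest, and the other MidK2 days lay between it and MEF2. In order of share, the Timp1 libraries run LowK days 35 and 52, MidK2 days 18, 29 and 36, MidK1 day 35, MidK2 day 22, LowK day 56, and MidK1 days 56 and 52, and the intervals of neighbours in this order overlap. For Bgn the order is MidK1 days 35 and 52, MidK2 day 18, LowK day 35, MidK1 day 56, and MidK2 days 36, 22 and 29. Neighbours overlap there too, except MidK1 days 35 and 52 and MidK2 days 36 and 22.

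**Figure D1:**
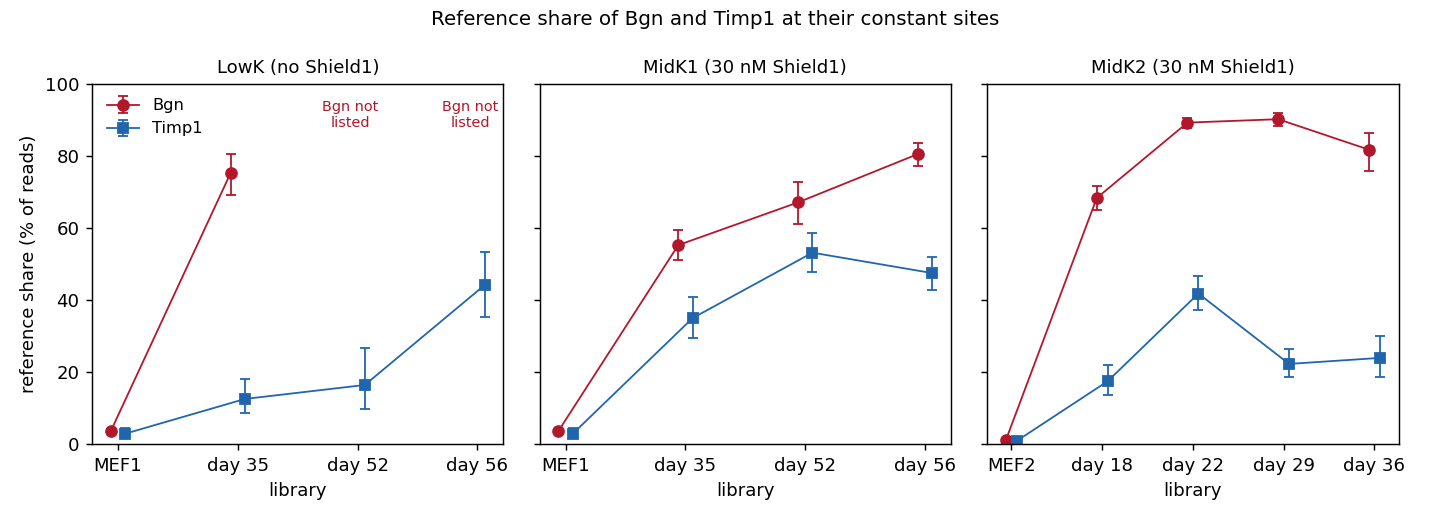
Reference share of Bgn (circles) and Timp1 (squares) at their constant sites, in percent of reads, for each library of the LowK, MidK1 and MidK2 courses with the MEF library of the same tables at the left. Bars are 95% Wilson intervals for counting error. Bgn stands at 55.2 to 90.1% in the reprogrammed libraries that list it and Timp1 at 12.6 to 53.1%, against 0.951 to 3.68% in MEF libraries.

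The reference and variant reads behind these shares moved differently in the 2 genes. Bgn was an abundant X chromosome transcript in fibroblasts, with 21201 of every 100000 reads over X chromosome sites in MEF1 and 18932 in MEF2. At its constant sites Bgn had 39.0 variant reads per 100000 in LowK at day 35 and 179, 58.9 and 79.6 in MidK1 at days 35, 52 and 56, against 11045 in MEF1. It had 113, 82.99, 55.9 and 13.3 variant reads per 100000 in MidK2 at days 18, 22, 29 and 36, against 9882 in MEF2. Variant reads of Bgn thus stood at 0.134 to 1.62% of their fibroblast level, 61.6 to 745 times lower. In bulk RNA, fewer cells of a type and less RNA per cell cannot be told apart.

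Reference reads of Bgn did not follow the variant reads. They were 118 per 100000 in LowK at day 35 and 221, 120 and 328 in MidK1 at days 35, 52 and 56, against 422 in MEF1, which is 28.0, 52.4, 28.4 and 77.7% of MEF1. In MidK2 they were 244, 685, 511 and 59.1 per 100000 at days 18, 22, 29 and 36, against 126 in MEF2. That is 193, 543, 405 and 46.9% of MEF2. Bgn reference reads thus stood above the MEF2 level at MidK2 days 18, 22 and 29 and below it at MidK2 day 36. They stood below the MEF1 level in LowK at day 35 and in MidK1. This split also carries the gap between MEF1, with 422 per 100000, and MEF2, with 126. MidK1 at day 56, with 328, had more than MidK2 at days 18 and 36. MidK2 at days 22 and 29 had more than any MidK1 day.

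If the remaining Bgn variant reads had come with reference reads at the ratio seen in the MEF library of the same set, there would have been 2.06 reference reads in LowK at day 35, where 164 were counted. The same ratio gives 9.67, 3.13 and 4.43 reference reads in MidK1 at days 35, 52 and 56, where 312, 167 and 478 were counted. It gives 3.06, 2.46, 1.47 and 0.472 in MidK2 at days 18, 22, 29 and 36, where 517, 1592, 1051 and 165 were counted. The counts were 32.3 to 716 times the number at the fibroblast ratio, lowest in MidK1 at day 35 and highest in MidK2 at day 29. In each of these libraries the reference reads were thus more than the remaining variant reads would carry at the fibroblast ratio.

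Timp1 variant reads stayed closer to their fibroblast level. There were 121, 35.1 and 38.3 variant reads per 100000 in LowK at days 35, 52 and 56 and 121, 108 and 163 in MidK1 at the same days, against 397 in MEF1. It had 120, 104, 170 and 58.1 in MidK2 at days 18, 22, 29 and 36, against 494 in MEF2. These are 8.85 to 41.1% of the fibroblast level, or 2.43 to 11.3 times lower.

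Reference reads of Timp1 were 17.3, 6.91 and 30.3 per 100000 in LowK at days 35, 52 and 56 and 65.2, 122 and 147 in MidK1, against 11.98 in MEF1. In MidK2 they were 25.5, 74.4, 48.6 and 18.3 at days 18, 22, 29 and 36, against 4.74 in MEF2. They stood at 5.44 to 12.3 times the MEF1 level in MidK1 and at 3.85 to 15.7 times the MEF2 level in MidK2, although the MEF values rest on 18 and 10 reads. LowK had 145, 57.6 and 253% of the MEF1 level. At the fibroblast ratio, the variant reads of Timp1 would carry 1.84 to 5.04 reference reads in LowK, 4.53 to 7.19 in MidK1 and 1.55 to 3.35 in MidK2. The counts were 4.76, 6.51 and 26.2 times those numbers in LowK at days 35, 52 and 56, 17.8 to 37.5 times in MidK1 and 22.1 to 74.8 times in MidK2.

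Scaling to X chromosome site reads is itself touched by Bgn, which made up so much of the MEF reads. Scaled instead to the reads of housekeeping genes at sites listed in every library of a set, all levels relative to MEF came out 1.14 to 1.89 times lower. Bgn reference reads were then 14.8% of MEF1 in LowK at day 35, 37.5, 17.8 and 52.6% in MidK1 at days 35, 52 and 56, and 169, 441, 315 and 39.2% of MEF2 in MidK2 at days 18, 22, 29 and 36. Timp1 reference reads in LowK at day 35 were 76.4% of MEF1 with this scaling and 145% with the first, so no direction can be given for them. At LowK days 52 and 56 they were 33.5 and 166% with this scaling. Reference shares do not depend on the scaling.

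**Figure D2:**
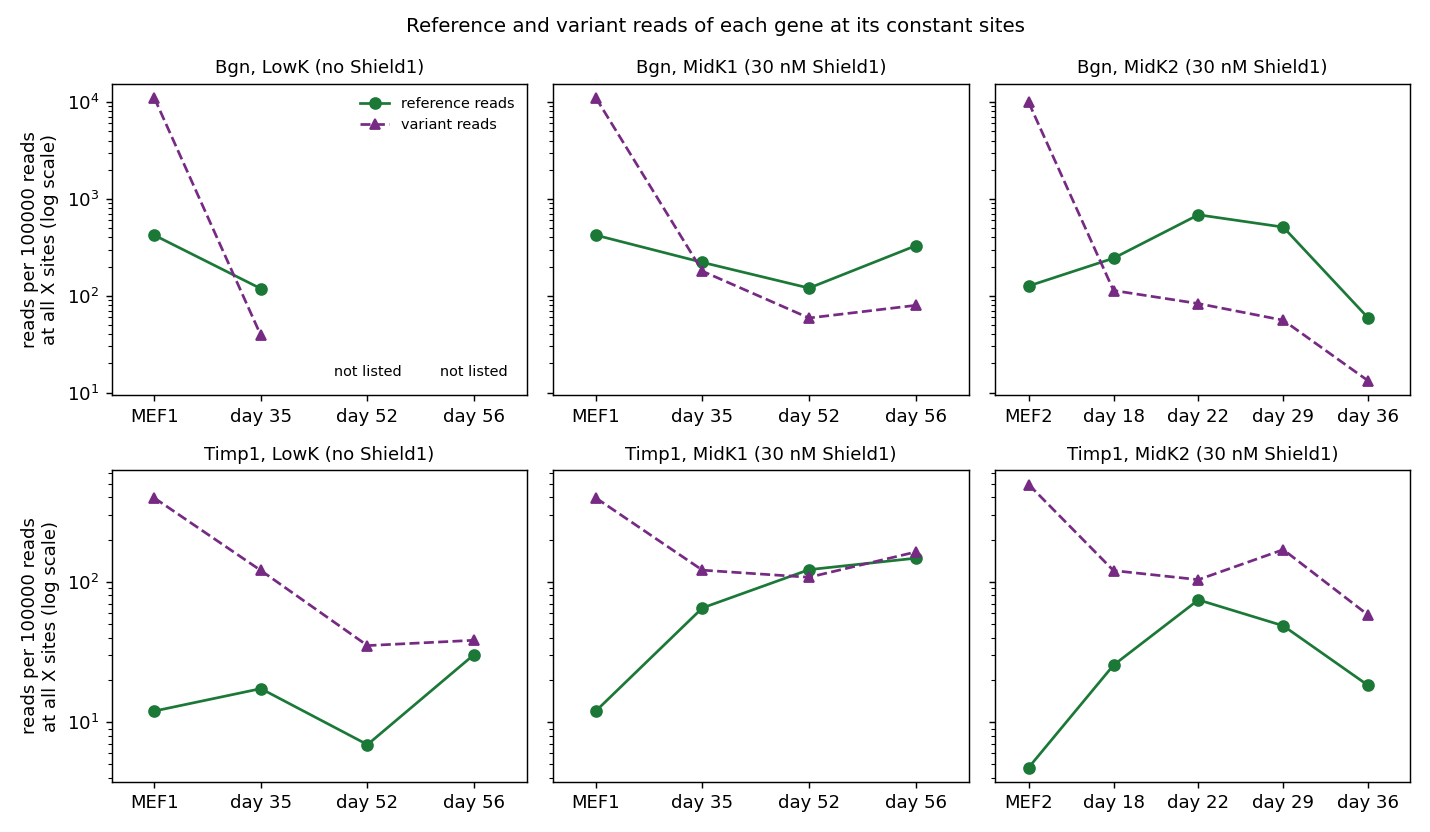
Reference reads (circles) and variant reads (triangles) of Bgn and Timp1 at their constant sites, per 100000 reads at all X chromosome sites on a log axis, with the MEF library at the left of each course. Bgn variant reads stand at 0.134 to 1.62% of their MEF level while its reference reads stand at 28.0 to 543%, and Timp1 variant reads stand at 8.85 to 41.1% of MEF.

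Most other genes of the fibroblast-expressed list had fewer reads per 100000 than in MEF, but not all. Without Bgn and Timp1, the 11 to 14 listed genes of that list held 5697 to 8581 of every 100000 X chromosome site reads in reprogrammed libraries, against 36013 in MEF1 and 34056 in MEF2, where 17 and 15 were listed. At sites shared with the MEF library, between 8 of 11 genes (MidK1 day 35) and 12 of 13 (LowK day 56, MidK2 days 18 and 36) had fewer reads than MEF. Plp2, a membrane protein gene, had more in each reprogrammed library with the first scaling, at 111 to 971% of MEF, and Cd99l2 and Tspan6 had more in some. The variant reads of these other genes had medians of 21.3 to 32.8% of MEF and reached 124 to 243% in the highest gene of each library.

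At the same shared sites Timp1 variant reads were far under that median in 3 libraries. They were 8.85% of MEF1 in LowK at day 52, where the median of the others was 29.7% and the lowest 9.45%, and 9.66% in LowK at day 56, where the median was 24.6%. In MidK2 at day 36 they were 13.3% of MEF2, where the median was 27.8%. In the other 7 libraries Timp1 stood at 20.5 to 37.8%. Bgn variant reads stood at 0.139 to 1.29% of MEF at shared sites. In each of the 8 libraries that list Bgn they lie under the lowest of the other genes still listed there. That lowest gene stood at 3.89 to 7.69%, and genes no longer listed could not be compared. Of 7 pluripotency and early embryo genes on the X, 3 to 4 were listed in reprogrammed libraries and 1 in each MEF library. They held 1072 to 2157 reads per 100000 in reprogrammed libraries, against 406 in MEF1 and 517 in MEF2. These sums do not cover the same genes and carry the scaling limit given above. Tfe3 alone made up the MEF sums and most of each other sum. It held 857 of the 1072 in LowK at day 35 and 1731 of the 2157 in MidK1 at day 52. The sums thus mainly give the level of Tfe3. Whether the remaining variant reads came from remaining fibroblasts was not tested.

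Each reprogrammed library was then compared with the MEF library of its set at the sites listed in both, using a two-sided Fisher's exact test on summed reads with Benjamini-Hochberg adjustment over all genes of the pair. A gene counted as called where its shares differed by 20 percentage points or more with an adjusted p under 0.05. Bgn was called higher in 8 of the 8 pairs that measured it and Timp1 in 7 of 10. The share of all tested genes called higher was 1.23% in LowK at day 35, 1.76% at day 52 and 4.91% at day 56. It was 8.5, 12.9 and 14.1% in MidK1 at days 35, 52 and 56, and 1.59, 9.63, 9.94 and 10.4% in MidK2 at days 18, 22, 29 and 36.

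For Bgn the difference from MEF1 was 71.5 points (Newcombe 95% interval 65.4 to 76.8) in LowK at day 35, with an adjusted p of 8.93e-175 by Fisher's exact test. In MidK1 it was 52.0, 65.6 and 76.9 points at days 35, 52 and 56. From MEF2 it was 68.3, 88.3, 89.3 and 79.2 points in MidK2 at days 18, 22, 29 and 36. The adjusted p of these other Bgn pairs was lower still. The difference of Bgn ranked first among 156 to 192 genes in LowK at day 35, MidK1 at day 56 and all MidK2 days, rank 3 of 155 in MidK1 at day 52 and rank 4 of 153 at day 35. The median difference over all tested genes lay between -0.88 and 7.95 points in these pairs.

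For Timp1 the difference was 41.2 points (32.2 to 50.6) in LowK at day 56, with an adjusted p of 1.41e-28 by Fisher's exact test. It was 32.2, 49.1 and 44.5 points in MidK1 at days 35, 52 and 56, and 38.8 points in MidK2 at day 22. It was 20.5 points both at MidK2 day 29 (17.4 to 23.9) and at day 36 (16.1 to 25.6), just past the call. The adjusted p of each of these called Timp1 pairs was lower than that of LowK day 56. Timp1 at MidK2 days 29 and 36 fell short of 20 points with the mean of the site shares (18.4 and 19.2 points) or with MEF1 in place of MEF2 (18.8 and 18.2 points), and at day 36 also with a coverage minimum of 10 (19.1 points).

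The pairs in which Timp1 was not called had small adjusted p values but differences under 20 points. These were LowK at day 35 with 8.56 points (4.61 to 13.7, adjusted p = 6.06e-05 by Fisher's exact test) and day 52 with 13.5 points (6.53 to 23.7, adjusted p = 0.000166). The other was MidK2 at day 18 with 15.3 points (11.8 to 19.5, adjusted p = 7.00e-28 by Fisher's exact test).

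Over libraries, the Bgn share at all listed sites averaged 76.7 ± 11.5% in reprogrammed libraries (SD, n = 8) and 2.43 ± 1.82% in MEF libraries (SD, n = 2). The difference of 74.3 points had p = 0.0222 in a two-sided exact permutation test, the smallest that 45 splits can give. Timp1 averaged 30.7 ± 14.9% in reprogrammed libraries (SD, n = 10) and 2.15 ± 1.66% in MEF libraries (SD, n = 2), a difference of 28.5 points. The same exact permutation test over 66 splits gave p = 0.0303 for Timp1, where the smallest possible is 0.0152. Within the tables of MEF1 the differences were 66.5 points for Bgn and 31.3 for Timp1, and within those of MEF2 they were 82.1 and 23.8 points. Within a set there is 1 MEF library, so an exact test there could not go below 0.2 for Bgn, or below 0.143 for Timp1 in the tables of MEF1 and 0.2 in those of MEF2. The units are days of a course, with no repeated cultures, so these p-values say nothing of the spread from culture to culture. The share of all genes with such a p-value is not given here.

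The matched days ask what Shield1 adds. Of all genes tested, 7.66, 8.61 and 8.64% were called in either direction in MidK1 against LowK at days 35, 52 and 56. Timp1 was called higher in MidK1 at day 35, with 35.3% against 11.7% in LowK at the 4 shared sites, a difference of 23.6 points (16.3 to 30.4, adjusted p = 1.05e-08 by Fisher's exact test). It was called higher at day 52, with 53.1% in MidK1 against 16.4% in LowK, a difference of 36.7 points (25.2 to 45.4, adjusted p = 4.38e-08 by Fisher's exact test). At day 56 it had 47.5% in MidK1 against 44.1% in LowK, a difference of 3.32 points whose interval runs from -7.02 to 13.3 (adjusted p = 0.818 by Fisher's exact test). With the 3 days taken as pairs, MidK1 minus LowK averaged 21.2 ± 16.8 points (SD, n = 3), higher in 3 of 3 pairs, and an exact permutation of the signs gave p = 0.25, the smallest that 3 pairs allow.

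Bgn could be compared at day 35 alone, and there it went the other way. Its share was 55.2% in MidK1 against 75.2% in LowK, a difference of -20.01 points (-26.7 to -12.7, adjusted p = 1.98e-06 by Fisher's exact test), the lowest of 235 genes. This only just passes the call. It was not called with a coverage minimum of 10 (-16.7 points) or at its most covered single site (-15.8 points, adjusted p = 0.377 by Fisher's exact test). Variant reads of Bgn were 253 in MidK1 against 54 in LowK, and reference reads 312 against 164, so MidK1 had more of both. The LowK share also carries the ceiling for sites with few reads given above. A coverage minimum of 10 brings in sites with still lower ceilings in LowK, so that setting can by itself make the difference smaller.

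Between days of a course few genes were called in either direction. For LowK these were 1.23% for day 52 against day 35 and 0.395% for day 56 against day 52, and for MidK1 2.56% for day 52 against day 35 and 0.424% for day 56 against day 52. For MidK2 these were 2.46% for day 22 against day 18, 0.714% for day 29 against day 22 and 1.38% for day 36 against day 29. Timp1 was called higher in LowK at day 56 against day 52, by 27.7 points (14.2 to 39.2, adjusted p = 0.00126 by Fisher's exact test), and it was the 1 gene called in that pair. At its most covered single site the difference was 27.6 points but had an adjusted p of 0.514 by Fisher's exact test, with few reads.

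In MidK2 both genes were called higher at day 22 against day 18. Bgn differed by 20.1 points (17.3 to 23.0, adjusted p = 3.14e-49 by Fisher's exact test) and Timp1 by 23.5 points (17.6 to 29.0, adjusted p = 9.61e-13). With a coverage minimum of 50 the Bgn difference was 19.3 points and no longer called. From day 22 to day 29 Timp1 differed by -17.6 points (-23.0 to -12.1, adjusted p = 2.67e-08 by Fisher's exact test), while Bgn differed by 0.87 points (-0.87 to 2.57, adjusted p = 0.663). Neither was called. From day 29 to day 36 the differences were -10.1 points for Bgn (-15.1 to -5.79) and -0.66 points for Timp1 (-6.25 to 5.31).

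In MidK1 Bgn differed by 13.5 points (7.13 to 19.5) at day 52 against day 35 and by 11.5 points (5.87 to 17.3) at day 56 against day 52. Timp1 differed by 17.0 points (9.48 to 24.2) and by -4.55 points (-10.8 to 1.76) in the same pairs. None of these reached 20 points. In LowK Timp1 differed by 3.87 points (-4.82 to 14.8) at day 52 against day 35.

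The 2 courses with Shield1 can be set side by side at MidK2 day 36 and MidK1 day 35, days that differ by 1 and tables that differ in their limits. Of all genes, 2.44% were called in either direction. Bgn was called higher in MidK2, with 80.5% against 55.8% in MidK1, a difference of 24.8 points (18.2 to 30.6, adjusted p = 3.68e-11 by Fisher's exact test). Timp1 had 22.1% in MidK2 against 35.3% in MidK1, a difference of -13.2 points (-20.5 to -5.61, adjusted p = 0.00371 by Fisher's exact test) that was not called. The difference between the fibroblast libraries was smaller in points: MEF2 minus MEF1 was -2.57 points for Bgn and -2.33 points for Timp1. Fisher's exact test still gave an adjusted p of 4.13e-115 for Bgn and 0.00118 for Timp1, so a small adjusted p also arises between fibroblast libraries. These MEF shares lie at 0.98 to 3.71%, so they do not measure the spread between libraries at higher shares. None of 174 genes (0%) was called there at 20 points, and the median difference over them was -1.70 points.

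Single constant sites of Bgn were also compared within a library. In MidK2 at day 22 they had 87.9 to 90.0% with 238 to 329 reads a site. In MidK1 at day 35 they had 46.0 to 57.8% with 50 to 118 reads, at day 52 63.6 to 70.7% with 35 to 47 reads and at day 56 75.2 to 87.0% with 77 to 120 reads. In LowK at day 35 they had 70.0 to 78.3% with 23 to 40 reads, of which 5 to 12 carried the variant base. In MidK2 at day 36 they had 72.7 to 88.9% with 22 to 37 reads, the widest range of the 10 libraries. Not all MEF sites of Bgn reached 20 reads in reprogrammed libraries: 6 of 15 MEF1 sites did in LowK at day 35 and 9 to 12 in MidK1, and 9 to 14 of 18 MEF2 sites did in MidK2. The coding site at position 73491430 had 86.05% of 43 reads (72.7 to 93.4) in MidK2 at day 22, against 1.25% of 2003 reads in MEF2. Another coding site, at position 73491952, had 91.7% of 36 reads (78.2 to 97.1) in MidK2 at day 29. It was listed with 20 or more reads in no other library, so its share cannot be read as a change. Whether it tells the alleles apart was not tested.

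Bgn also had sites in MidK2 that MEF2 did not list at 20 reads, 4 at day 18, 3 at day 29 and 1 at day 36. Where such a site was not listed in MEF2, it cannot be read as a change, and the constant sites leave it out. At day 18 the Bgn share over all listed sites was 71.7%, against 68.3% at the constant sites.

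For Timp1, sites at both ends of the gene were read. In MidK1 the 5' UTR, coding and 3' UTR sites had 50.4, 52.9 and 53.2% at day 52 and 50% (40 of 80 reads), 46.5% and 48.0% at day 56. In MidK2 at day 22 the 5' UTR sites had 29.1% of 79 reads (20.3 to 39.9) and the 3' UTR sites 43.9% of 271 reads (38.1 to 49.9). The coding site G20874543A, where the alleles encode different amino acids, had 46.5% of 159 reads in MidK1 at day 56 and 37.1% of 35 reads in LowK at day 56, against 3.65% of 219 reads in MEF1. Reads of both coding alleles were thus counted in the reprogrammed libraries.

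**Figure D3:**
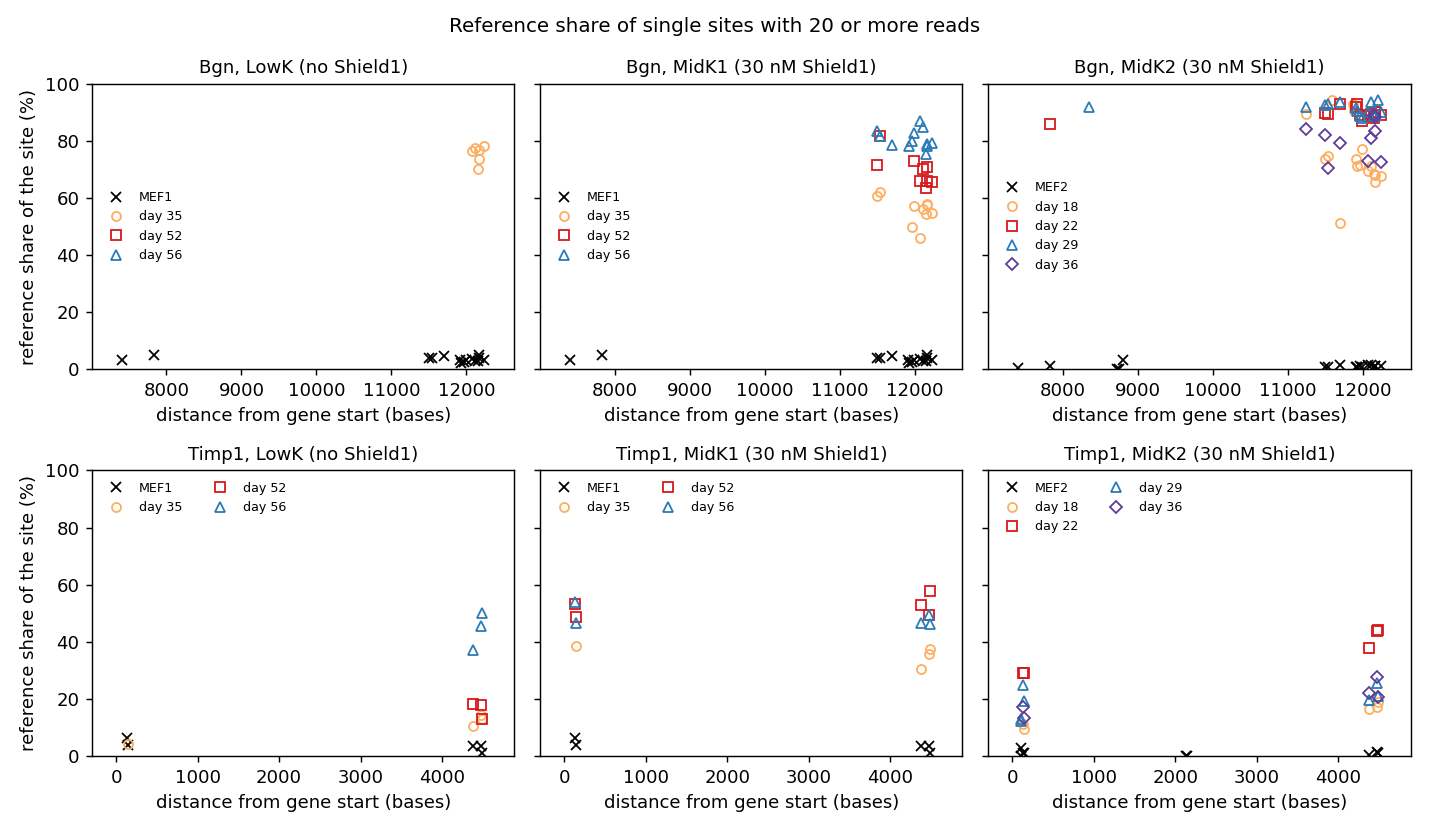
Reference share of each Bgn and Timp1 site with 20 or more reads, in percent, by its distance in bases from the gene start, with the library shown by symbol and colour. Crosses at the bottom are the MEF sites, and most reprogrammed Bgn sites lie near the end of the gene, with Timp1 sites at both ends.

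The genes next to Bgn and Timp1 were mostly read from the variant base in the same libraries. Within 500 kb of the middle of Bgn, 14 genes had a site in some library and 6 to 8 were tested in each pair with MEF. None was called in 9 of the 10 pairs, and in MidK2 at day 22 Renbp, a renin-binding protein gene, and Slc6a8, the creatine transporter gene, were called higher. In MidK1 at day 56, where Bgn had 80.6% over all listed sites, Haus7 had 8% of 25 reads, Bcap31 at 198 kb had 9.28% and Naa10 at 427 kb had 4.56%. In MidK2 at day 22, where Bgn had 89.5%, Haus7 had 49.3% of 75 reads, Bcap31 10.2% and Naa10 5.11%. Bcap31, an endoplasmic reticulum protein gene, the isocitrate dehydrogenase subunit gene Idh3g and Naa10, a protein acetyltransferase gene, stayed at or under 12.1% in all 12 libraries. Other neighbours stood higher in some libraries. Slc6a8 had 53.4, 34.5, 32.6 and 38.6% in MidK2 at days 18, 22, 29 and 36, against 22.4% in MEF2. Hcfc1, a transcription cofactor gene, had 14.2 to 31.4% in MidK2, against 27.8% in MEF2. The Slc6a8 and Hcfc1 shares are over all listed sites, which differ between libraries. At sites shared with MEF2, the largest difference of any tested neighbour of Bgn was 7.34 points at MidK2 day 18 and 24.99 at day 22. It was 19.4 points at day 29 and 0.656 at day 36. Apart from the call of Slc6a8 at day 22, these shares cannot be read as a change from MEF2. Pdzd4, not listed at 20 reads in either MEF library, had 31.9, 13.9, 55.7 and 10.2% in MidK2 at those days, and Haus7, not listed in MEF2, had 4.12, 49.3, 50 and 27.7%. Ssr4, listed at 20 reads at MidK2 days 18 and 29 alone, had 94.9% of 39 reads at 1 site and 92.5% of 53 reads over 2 sites. These Ssr4 shares lie near 95%, the highest a listed site can show in that set. Without a MEF value they cannot be read as a change, and whether these sites tell the alleles apart was not tested.

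Around Timp1, 12 genes had a site and 5 to 8 were tested in each pair with MEF. The gene called higher among them was Uba1, the ubiquitin-activating enzyme, in MidK1 at days 52 and 56 and in MidK2 at day 36. Uba1 had 46.95% in MidK1 at day 56, where Timp1 had 47.8%, and 8.51% in LowK at day 56, where Timp1 had 44.1%. Araf, a kinase gene, had 15.3% in MidK1 and 4.70% in LowK at day 56. In MidK2 it stood nearer to Timp1, with 22.3, 27.4, 21.8 and 17.7% at days 18, 22, 29 and 36, against 7.34% in MEF2. Timp1 had 16.3, 39.8, 21.5 and 21.5% at those days. These shares are over all listed sites, which differ between libraries. At sites shared with MEF2, the largest difference of any tested neighbour was 6.57 points at MidK2 day 18 and 14.0 at day 22. It was 17.6 points at day 29 and 21.2 at day 36. The difference between Timp1 or Bgn and a neighbour was not tested.

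**Figure D4:**
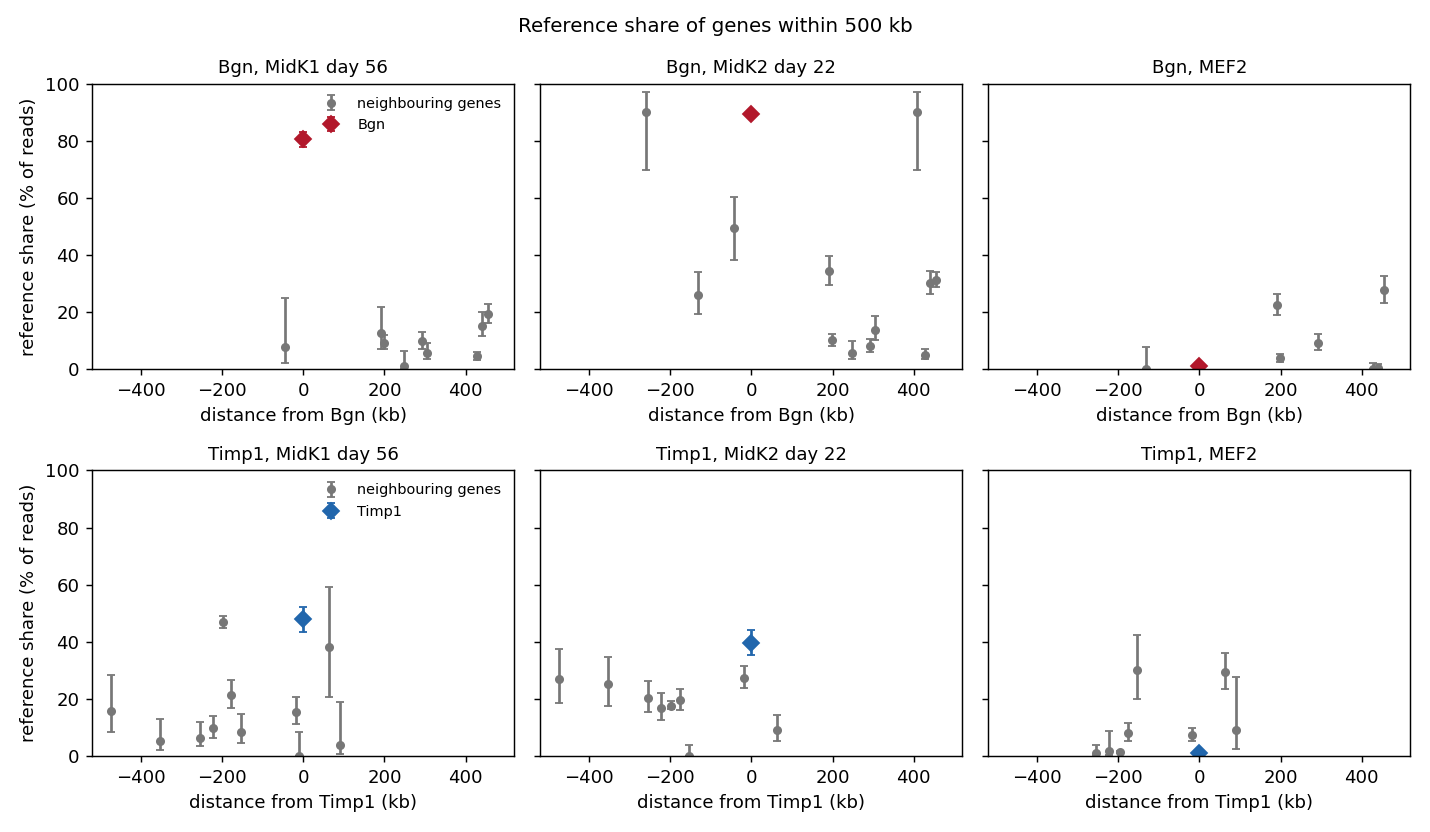
Reference share in percent of Bgn, Timp1 (diamonds) and the genes within 500 kb (circles), by distance in kb, in MidK1 day 56, MidK2 day 22 and MEF2, with 95% Wilson intervals. Bgn stands at 80.6 and 89.5% and Timp1 at 47.8 and 39.8% in the reprogrammed libraries, most neighbours lie lower, and neighbours at 90.0% around Bgn in MidK2 day 22 rest on few reads.

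Of 229 genes compared with each member by the mean absolute difference in reference share over the libraries they share, the nearest to Bgn were 1810030O07Rik at 18.0 points, Tceal3 at 20.1, Kdm6a at 22.9, Dynlt3 at 24.3 and Ddx3x at 26.9, where the median gene was at 55.7. The genes nearest to Timp1 were Rbmx2 at 8.23 points, Hdac6 at 8.81, Lamp2 at 9.02, Pim2 at 9.11 and Tfe3 at 9.45, where the median gene was at 21.02. These likenesses rest on 8 to 12 libraries that share courses, and they are descriptions. A small mean difference does not mean a like change from MEF. Ddx3x had 42.8% in MEF1 and 44.5% in MEF2, Tceal3 had 44.6% in MEF2, and Kdm6a was listed at 20 reads in neither MEF library.

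Among 21 matrix and glycosaminoglycan genes of the X chromosome, 0 to 3 besides Bgn and Timp1 were tested in each pair with MEF. Gpc4, a glypican that carries heparan sulphate on the cell surface, was called higher in MidK2 at day 29, and no other was called in any pair with MEF. Of the fibroblast-expressed list without Bgn and Timp1, 0 of 12 to 13 tested genes were called higher in LowK at any day. In MidK1 1 of 11, 2 of 11 and 2 of 10 were called at days 35, 52 and 56, where 8.5, 12.9 and 14.1% of all genes were called. In MidK2 0 of 13, 4 of 13, 5 of 12 and 2 of 13 were called at days 18, 22, 29 and 36, where 1.59, 9.63, 9.94 and 10.4% of all genes were. The counts in MidK1 and at MidK2 days 18 and 36 lie near these background shares. Those called were Plp2, Lamp2, Msn, Maged2, Tmsb4x and Gpc4.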

How the data were processed

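The series description states that the authors called variants with CLC Genomics Workbench (Basic Variant Call). The build is mm10, per the submitters' processing notes. Each table gives 2 raw read counts per variant, for the variant and for all covering reads, per the file headers, and a variant percent that is the first count relative to the second. The deposited percent equals 100 times count over coverage to within 5.04e-09. Aligner, caller settings, strand use, mouse strains, fibroblast sex and feeder cells are not stated in these sources.

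Single-base variants with at least 20 reads were kept, and several sites of a gene were summed. A site naming several genes was given to Bgn or Timp1 where named, otherwise to the one gene with an exon there in GENCODE M21. Pairs of libraries were compared per gene with Fisher's exact test in SciPy 1.17.1, which was tested on simulated data. Levels are reads per 100000 at X chromosome sites. Named genes are Bgn, Timp1, list members that were called, genes within 500 kb and the 5 nearest in share. Bgn and Timp1, the lists and the tests were chosen with earlier results of these data known. Alternatives are given in the closing section.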

Additional observations from a re-analysis of the deposited data

Results flagged for a closer look

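Bgn and Timp1 differed between MidK1 and LowK at matched days by a test of the difference itself, and in opposite directions at day 35. Bgn differed by -20.01 points, with 55.2% in MidK1 against 75.2% in LowK, and Timp1 by 23.6 points, with 35.3% in MidK1 against 11.7% in LowK. At day 52 Timp1 differed by 36.7 points, with 53.1% in MidK1 against 16.4% in LowK. At day 56 Timp1 was not called, with 47.5% in MidK1 against 44.1% in LowK, a difference of 3.32 points (-7.02 to 13.3, adjusted p = 0.818 by Fisher's exact test). Each of these values compares 1 library with another, and the Bgn value depends on the sites used.

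A deletion of 1 base in the 3' UTR of Bgn, at chrX:73495625 (mm10), is a signal outside the single-base sites. Reads without the deletion made up 63.0% of 54, 64.9% of 37 and 85.7% of 63 reads in MidK1 at days 35, 52 and 56, against 12.7% of 2758 in MEF1. They made up 72.2% of 97, 88.8% of 233, 86.2% of 174 and 74.2% of 31 reads in MidK2 at days 18, 22, 29 and 36, against 6.49% of 3449 in MEF2. The MEF values stand above those of the single-base sites, and the cause was not tested.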

How the results depend on the processing

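The alternatives were a coverage minimum of 10 or 50, the most covered site alone, the mean of site shares, sites listed in every library of a set, sites naming Bgn or Timp1 alone, a call at 10 points, and MEF1 or MEF2 alone. A further one, the constant sites, was chosen after seeing the data. The reprogrammed minus MEF difference kept its direction in each alternative that gave a value. Without one MEF library it ranged from 73.0 to 75.6 points for Bgn and from 27.4 to 29.7 for Timp1, designs in which an exact test cannot pass 0.05. The Bgn call between MidK1 and LowK at day 35 gave 0 called days with a coverage minimum of 10 and with the most covered site. With a coverage minimum of 50, Bgn was called higher than MEF in 5 of 5 pairs and Timp1 in 1 of 1 matched days, since fewer libraries kept sites. With sites listed in every library of a set, Bgn was called in 4 of 4 pairs, all MidK2, because LowK at days 52 and 56 lists none. Sites naming the gene alone gave no value for Timp1. By replicate number no paired analysis was possible because no such number is shared between groups. MidK1 and LowK share 3 days, and with these as pairs, an alternative chosen after seeing the data, Timp1 differed by 21.2 points with an exact permutation p of 0.25.

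Depth limits Timp1 in LowK most, with 73 to 191 reads at its constant sites. Bgn is not listed in LowK at days 52 and 56, and the tables do not say whether depth is the reason. A listed site cannot show more than about 90% reference reads in one set or 95% in the other. At sites with few reads the least count of variant reads sets a lower ceiling, as for Bgn in LowK at day 35. Sites where both chromosomes carry the variant cannot be told from sites of one active chromosome.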
